A study of Homo sapiens with 12 samples.

Results

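In U2OS, a human osteosarcoma cell line, 14 genes that were near-silent with DMSO were read in every library once TH10785 and PNKP1i were given together. They were selected on the authors' normalized counts, which are read counts divided by 1 size factor per library. A gene was taken if it had a symbol, a mean under 5 over the 3 DMSO libraries and a value of 20 or more in each of the 3 libraries with both compounds, and symbols starting with CXCL, IL, MMP, KRT, COL or SNHG, and BCL2A1, were left out. Of the 35754 genes in the table, 23917 had a symbol, and 7878 of those were near-silent by the first threshold with at least 1 count somewhere. The 14 genes are ESM1, SPRR2D, LOC644135, EREG, DCDC2C, LINC00520, BIRC3, SPNS3, ESRP1, TM6SF1, MYCT1, CPED1, CCL20 and NLRP10. The DMSO mean and the libraries with both compounds chose these genes, so their levels in those libraries are a description. Whether either compound alone starts them was measured in 6 libraries the choice did not use.

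The 12 libraries fall into 4 groups of 3: the solvent DMSO, 10 µM TH10785, 10 µM PNKP1i, and both compounds at 10 µM each, all given for 24 h to cells of the same line. TH10785 activates OGG1, the glycosylase that cuts oxidised guanine out of DNA, and is spelled TH10587 in the series text. PNKP1i is an inhibitor known here by that code name, with no structure given in the sources used here. The labels do not say whether replicates came from separate cultures, so the tests measure the spread between these libraries, which may be technical. The markers fixed for osteoblast lineage cells matched the label in part: 9 of 10 had counts in DMSO, with IBSP at 0 throughout, and their summed level was 3142 to 3740 CPM (counts scaled to library size) in DMSO, 3002 to 3502 with TH10785, 3326 to 3410 with PNKP1i and 1387 to 1911 with both.

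A gene that a differentiated line keeps silent can be started by signals outside its lineage. BIRC3 and CCL20 are textbook targets of the NF-kB transcription factors, which inflammatory and stress signals release into the nucleus. EREG is among the genes that growth factor signalling through MAP kinases starts quickly. ESM1 and MYCT1 are best known from the endothelium, and SPRR2D and ESRP1 from epithelia, tissues that an osteosarcoma line does not represent.

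The stretches of DNA before the start sites are shown for 4 members, because the motifs found most often among the set, the TATA box, and the one tied to the NF-kB targets lie there. Promoters from 250 bases before to 50 after the start were available from RefSeq (GRCh38.p14) for 8 of the 14 genes: ESM1, EREG, DCDC2C, BIRC3, TM6SF1, MYCT1, CPED1 and CCL20. The 250 bases before the start are printed 5′ to 3′ on the gene's own strand, with the TATA box TATAAA in capitals for ESM1 (chr5:54985594-54985843, minus strand), EREG (chr4:74364895-74365144, plus strand) and CCL20 (chr2:227813592-227813841, plus strand), and the NF-kB match in capitals for BIRC3 (chr11:102317234-102317483, plus strand).
ESM1: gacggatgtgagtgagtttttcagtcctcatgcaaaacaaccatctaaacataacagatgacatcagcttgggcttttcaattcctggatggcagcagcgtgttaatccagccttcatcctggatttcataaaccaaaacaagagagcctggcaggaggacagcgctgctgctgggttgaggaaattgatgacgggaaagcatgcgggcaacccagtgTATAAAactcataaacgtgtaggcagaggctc
EREG: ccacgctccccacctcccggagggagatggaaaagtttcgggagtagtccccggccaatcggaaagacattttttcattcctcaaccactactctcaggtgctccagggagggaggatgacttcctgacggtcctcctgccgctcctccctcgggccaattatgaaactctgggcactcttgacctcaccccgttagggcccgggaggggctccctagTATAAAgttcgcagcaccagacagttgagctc
CCL20: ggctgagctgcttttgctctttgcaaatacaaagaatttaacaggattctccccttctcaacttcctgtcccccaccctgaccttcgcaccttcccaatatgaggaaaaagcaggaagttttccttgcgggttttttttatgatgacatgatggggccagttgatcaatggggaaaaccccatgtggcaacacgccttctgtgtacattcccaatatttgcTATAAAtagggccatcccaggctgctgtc
BIRC3: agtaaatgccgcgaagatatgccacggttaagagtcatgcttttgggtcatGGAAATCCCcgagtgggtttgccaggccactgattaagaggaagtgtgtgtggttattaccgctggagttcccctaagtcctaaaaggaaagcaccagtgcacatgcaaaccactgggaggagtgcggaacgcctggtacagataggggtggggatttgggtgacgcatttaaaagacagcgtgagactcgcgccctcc

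Counting back from position -1, the last base before the start, TATAAA began at -32 in ESM1, at -32 in EREG, at -29 in CCL20 and at -80 in MYCT1, all on the gene's strand. In ESM1, EREG and CCL20 this is the usual distance of a TATA box from the start, and in MYCT1 it is farther. The motif was found on either strand in 4 of the 8 promoters (50%), in 11.95% of all 27305 promoters of the table and in 15.8% of those of near-silent genes. The NF-kB motif GGGANTTCC was in BIRC3 alone, on the opposite strand from -199 to -191, and in 1.86% of all promoters. NF-kB sites that depart from these letters were not searched, so the lack of a match in CCL20 does not show that it has no site. MYCT1 held the ATF4 and CEBP composite motif TGATGNAA (3.67% of all promoters), and CPED1 held the NRF2 motif TGACNNNGC (13.6%). None of the 8 windows held AP-1 (TGANTCA, 7.76% of all), CRE (TGACGTCA, 1.98%), the E-box CACGTG (7.43%), the SRE core (0.0732%) or the heat shock element (0.487%). No 2 of the matches overlapped. These are letter matches in a fixed window, and the data hold no measure of binding.

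Positions below are gene spans of GENCODE v29 on GRCh38. Among the secreted products, ESM1 (chr5:54977864-55022671, minus strand), which encodes the endothelial proteoglycan endocan, had the highest count of the set with both compounds, uncorrected for gene length. It read 2.21, 4.54 and 7.91 normalized counts with DMSO, 14.7, 9.61 and 11.5 with TH10785, 8.37, 19.9 and 9.14 under PNKP1i, and 407.5, 141.8 and 154.6 with both. All 6 libraries of the single compounds lay above the 3 DMSO libraries, at 5.08% (TH10785) and 5.32% (PNKP1i) of the mean with both compounds. In reads, PNKP1i replicate 1 and DMSO replicate 3 were equal at 8, so their order rests on the size factors. EREG (chr4:74365143-74388751, plus strand) encodes epiregulin, a ligand of the EGF receptor family. It read 2.21, 0 and 7.91 with DMSO, 6.77, 2.88 and 8.38 with TH10785, 12.6, 32.9 and 8.23 under PNKP1i, and 134.1, 33.5 and 83.5 with both. PNKP1i replicate 2 thus reached nearly the level of the lowest library with both compounds, while the other 2 PNKP1i libraries stayed far under it. CCL20 (chr2:227805739-227817564, plus strand), the chemokine that acts on CCR6, read 3.31, 4.54 and 5.93 with DMSO, 7.89, 10.6 and 2.09 with TH10785, 3.14, 17.0 and 4.57 under PNKP1i, and 42.6, 21.1 and 20.7 with both. Its single-compound libraries overlapped DMSO in both groups.

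Of the genes of cell survival and innate immunity, BIRC3 (chr11:102317450-102339403, plus strand) encodes cIAP2, a ubiquitin ligase at the tumour necrosis factor receptors. It read 6.62, 4.54 and 0 with DMSO, 9.02, 12.5 and 3.14 with TH10785, 3.14, 8.98 and 10.97 under PNKP1i, and 71.9, 29.1 and 57.0 with both. NLRP10 (chr11:7959424-7965426, minus strand), a NOD-like receptor that lacks leucine-rich repeats, read 6.62, 1.14 and 0.989 with DMSO, 14.7, 1.92 and 3.14 with TH10785, 4.19, 0 and 6.40 under PNKP1i, and 32.8, 25.5 and 24.0 with both. For both genes each single-compound group overlapped DMSO, and the NLRP10 value of 14.7 came from 1 library.

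The epithelial genes SPRR2D and ESRP1 had the smallest log2 fold changes of the set with TH10785 alone, 0.33 (SE 1.22) and 0.30 (SE 0.96). SPRR2D (chr1:153039725-153041931, minus strand) encodes a small proline-rich protein of the cornified envelope of skin. It read 4.41, 3.41 and 5.93 with DMSO, 2.26, 2.88 and 12.6 with TH10785, 3.14, 10.97 and 8.23 under PNKP1i, and 420.8, 49.3 and 68.6 with both. Replicate 1 was 7.14 times the mean of the other 2 libraries with both compounds, the widest such gap of the 14 genes. The SPRR2 genes are near-identical copies, so reads may have been split among them or lost: SPRR2E had a mean of 1.18 with both compounds and none elsewhere, and the value of SPRR2D is uncertain. ESRP1 (chr8:94641074-94707466, plus strand), a splicing factor that keeps epithelial exon choices, read 5.52, 2.27 and 0 with DMSO, 4.51, 0.961 and 4.19 with TH10785, 7.33, 3.99 and 6.40 under PNKP1i, and 85.2, 29.1 and 32.2 with both. Its TH10785 mean of 3.22 was the only one of the set still under 5. The 8 epithelial markers summed to 2057 to 2389 CPM in DMSO, 2437 to 3723 with TH10785, 2002 to 2516 with PNKP1i and 1208 to 1501 with both. Most of these sums came from KRT8 (means 1606, 2201, 1704 and 762 CPM in that order) and KRT18 (551, 677, 563 and 539). From DMSO to both compounds, EPCAM (3.40 to 3.65) and CDH1 (1.98 to 2.54) were slightly higher, and CLDN3 (0.234 to 0.210) and KRT19 (0.133 to 0.0806) lower. The markers were tested by edgeR's quasi-likelihood test with Benjamini-Hochberg adjustment. Of the 6 tested, CLDN4 (log2 fold change -1.48) and KRT8 (-1.07) fell with both compounds. Only ESRP1 rose, and the rule had chosen it for that rise, so its call is no separate result. Leukocyte markers summed to at most 1.54 CPM in any library, with CD3E and LYZ among those at 0 throughout. Endothelial markers summed to 8.501 to 9.80 CPM with DMSO and 7.53 to 12.6 with TH10785. With PNKP1i they summed to 8.05 to 9.57, and with both compounds to 4.06 to 7.31. From DMSO to both compounds, the mean of VWF went from 3.11 to 0.897 CPM and that of CLDN5 from 3.60 to 2.63. CDH5 (0.688 to 0.638) and TEK (0.736 to 0.634) were slightly lower, and PECAM1 (0.807 to 1.01) and KDR (0.115 to 0.154) were higher. By edgeR, 1 of the 5 tested was called lower with both and 0 higher, against 19.7% and 21.3% of all genes. The part of any other cell type in these values was not tested.

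Of the membrane proteins, SPNS3 (chr17:4433688-4488208, plus strand), a member of the Spinster family of lipid transporters, was the only one whose mean reached 20 with a single compound. It read 1.10, 10.2 and 2.97 with DMSO, 13.5, 11.5 and 19.9 with TH10785, 26.2, 17.0 and 25.6 under PNKP1i, and 62.1, 39.6 and 45.5 with both. The 4 groups did not overlap except for the 2 single compounds, and the PNKP1i mean of 22.9 was 46.7% of the mean with both. TM6SF1 (chr15:83107407-83144854, plus strand), a multipass membrane protein, read 4.41, 3.41 and 2.97 with DMSO, 7.89, 8.65 and 10.5 with TH10785, 3.14, 8.98 and 10.1 under PNKP1i, and 66.6, 25.5 and 44.6 with both. MYCT1 (chr6:152697895-152724567, plus strand), a small protein named as a target of MYC, read 1.10, 4.54 and 2.97 with DMSO, 12.4, 1.92 and 5.24 with TH10785, 1.05, 1.99 and 2.74 under PNKP1i, and 65.7, 20.2 and 20.7 with both. It was the only gene whose PNKP1i mean (1.93) lay below its DMSO mean (2.87).

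DCDC2C (chr2:3703592-3847411, plus strand) carries doublecortin domains, which bind microtubules, and had the lowest DMSO mean of the set, 1.04. It read 0, 1.14 and 1.98 with DMSO, 15.8, 8.65 and 8.38 with TH10785, 4.19, 2.99 and 12.8 under PNKP1i, and 123.4, 37.9 and 46.3 with both. CPED1 (chr7:120988677-121297444, plus strand), a large protein with cadherin-like and esterase domains, read 3.31, 4.54 and 1.98 with DMSO, 20.3, 17.3 and 8.38 with TH10785, 9.42, 15.96 and 5.49 under PNKP1i, and 34.6, 25.5 and 40.5 with both. For both genes all 6 single-compound libraries lay above DMSO, and CPED1 came closest to its full level with TH10785, at 45.7% of the mean with both compounds.

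The set held 2 long noncoding RNAs. LOC644135 (chr6:135991936-136225751, minus strand), annotated as AL138828.1, lies antisense to PDE7B on chromosome 6. It read 4.41, 2.27 and 0.989 with DMSO, 9.02, 10.6 and 6.28 with TH10785, 2.09, 8.98 and 11.9 under PNKP1i, and 227.3, 83.6 and 145.5 with both. The counting is not stated to use strand, so reads of LOC644135 and PDE7B cannot be told apart where they overlap; PDE7B itself had a mean of 0.379 with DMSO and 3.53 with both. LINC00520 (chr14:55781132-55796731, minus strand), an intergenic RNA on chromosome 14, read 3.31, 2.27 and 1.98 with DMSO, 10.1, 7.69 and 15.7 with TH10785, 5.23, 2.99 and 6.40 under PNKP1i, and 120.7, 44.0 and 41.3 with both. It was the only gene of the 14 whose TH10785 libraries all lay above its PNKP1i libraries.

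**Figure D1:**
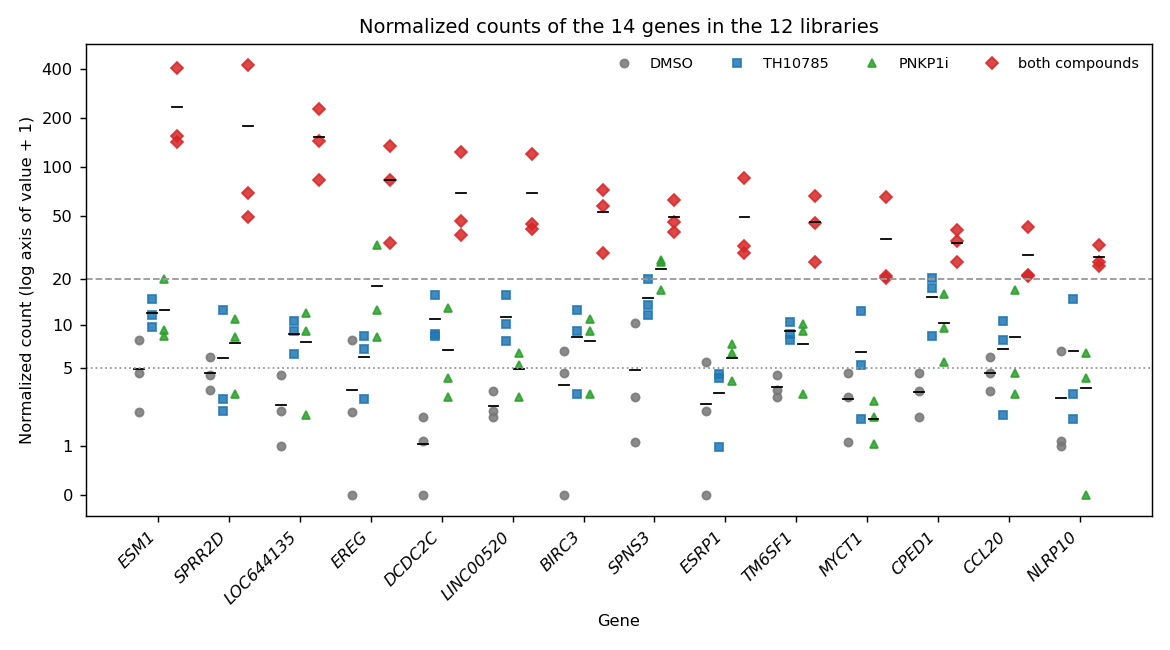
Normalized counts of the 14 genes (horizontal axis) on a log axis of value + 1, with 3 points per group for DMSO, TH10785, PNKP1i and both compounds and a black bar at the mean of the plotted values. The dotted and dashed lines mark the thresholds of 5 (for the DMSO mean) and 20 (for each library with both compounds) that chose the genes. With 1 compound, points lie above 20 only for CPED1 (TH10785) and for EREG and SPNS3 (PNKP1i).

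Uncorrected for length, the means with both compounds ran from 27.5 ± 4.74 (SD, n = 3, NLRP10) to 234.6 ± 149.9 (SD, n = 3, ESM1), with a median over the genes of 50.9, against a median DMSO mean of 3.32. The ratio of the 2 means ran from 6.12 for CCL20 to 66.7 for DCDC2C, where the DMSO libraries hold 0, 1 and 2 reads, so the ratio is loosely set. Set against kilobases of annotated exon, SPRR2D (170 normalized counts per kb) and ESM1 (87.1) had the highest levels with both compounds, and CPED1 the lowest (4.35). Without replicate 1 the same values were 55.8, 54.97 and 4.29. The genes next to the thresholds were close to them: ESM1 (DMSO mean 4.89), SPNS3 (4.77) and CCL20 (4.596) lay just inside the first, and MYCT1 (lowest library 20.2), CCL20 (20.7) and NLRP10 (24.0) just inside the second. KCNIP4 (DMSO mean 5.04), AKR1C7P (5.49) and MILR1 (6.10) lay just outside the first, and VEPH1 (lowest library 19.0), STARD13-AS (18.5) and PPP1R1C (18.2) just outside the second.

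Neither compound alone started the genes by the rule that chose them. Applied to the 3 TH10785 libraries in place of those with both compounds, the rule took 0 genes, and applied to the 3 PNKP1i libraries it also took 0, also when no symbol was required and none was left out; with both compounds that open form took 19. With a threshold of 10 in place of 20 it took 10 genes for TH10785 and 3 for PNKP1i, and of the 14 only SPNS3 was among them in each case; the others for PNKP1i were MT1G and GMPR. Without TH10785 replicate 2 it took EGR4, an immediate early gene at 0 in DMSO that had a mean of 20.6 with TH10785 and 14.3 with both compounds, and without PNKP1i replicate 2 it took SPNS3. With DMSO means up to 10 it took 5 genes for TH10785, outside the 14: MPP4, XIRP1, NR2F1-AS1, CYP11A1 and LLGL2. Of these, MPP4 had 45.6 with TH10785 and 69.3 with both, while XIRP1 had 49.6 and 8.27 and LLGL2 had 29.8 and 6.01. The mean with TH10785 reached 20 in 0 of the 14 genes and with PNKP1i in 1, SPNS3. It stayed under 5 in 1 gene with TH10785 (ESRP1) and in 3 with PNKP1i (LINC00520 at 4.88, MYCT1 at 1.93 and NLRP10 at 3.53). The mirrored rule, a mean under 5 with both compounds and 20 or more in every DMSO library, took 8 genes.

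With 1 compound the genes read somewhat above their DMSO level, as near-silent genes that passed the same filter on low counts mostly did. The TH10785 mean lay above the DMSO mean in 14 of 14 genes and the PNKP1i mean in 13. Among the 131 near-silent genes that passed the filter, the fitted change was upward in 88.5% and 89.3%, which is close to the members' share. Among all 2604 near-silent genes in the same range of DMSO means (1.04 to 4.89), filtered or not, the mean was higher in 38.9% and 40.3%. The 14 genes are themselves part of the 131 and of the 2604, so neither is a separate background. The 3 TH10785 libraries all lay above the 3 DMSO libraries in 7 genes: ESM1, LOC644135, DCDC2C, LINC00520, SPNS3, TM6SF1 and CPED1. That held for 9.64% of all genes tested, for 3.26% of those 2604 genes and for 32.8% of those 131. With PNKP1i it held in 5, ESM1, EREG, DCDC2C, SPNS3 and CPED1, against 11.7%, 3.57% and 22.9%. In reads, the lowest PNKP1i library and the highest DMSO library held 8 and 8 for ESM1. They held 9 and 8 for EREG, 3 and 2 for DCDC2C, 6 and 4 for CPED1, and 17 and 9 for SPNS3. The DMSO mean was chosen low, which can lean these counts of genes upward, and the 131 genes could not pass the filter on their DMSO libraries alone. In bulk RNA, more cells with a transcript and more of it per cell cannot be told apart. Summed over the 14 genes, the libraries read 44.5 to 48.9 with DMSO, 107.6 to 148.8 with TH10785, 93.1 to 152.6 with PNKP1i and 605.7 to 1895 with both.

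**Figure D2:**
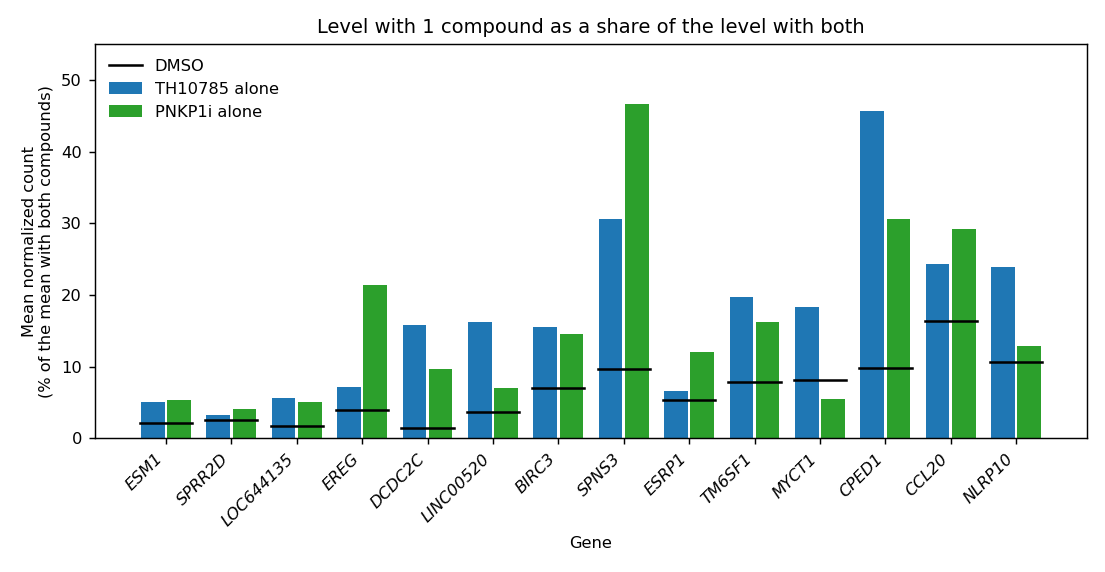
Mean normalized count with each compound alone (bars) and with DMSO (black lines) as a percent of the mean with both compounds, for each gene (3 libraries a group, error not drawn). The TH10785 bars run from 3.29% (SPRR2D) to 45.7% (CPED1) and the PNKP1i bars from 4.15% (SPRR2D) to 46.7% (SPNS3).

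The median share was 16.04% of the level with both for TH10785 and 12.5% for PNKP1i, and 12 and 11 of the 14 genes stayed under 25%. Neither compound led throughout: TH10785 had the higher mean of the single groups in 8 genes and PNKP1i in 6. As a description, the mean with both compounds was above the sum of the 2 single increments plus the DMSO level in 14 of 14 genes, by 1.48 times in SPNS3 to 20.5 times in SPRR2D, with a median of 4.25. Without replicate 1 of the libraries with both compounds it was above in 14 of 14 still, by 1.28 times (SPNS3) to 8.35 times (LOC644135), with a median of 3.30; SPRR2D then stood at 6.73 and ESM1 at 7.59. CPED1 (1.502 times with all 3 libraries) stood beside SPNS3 at the low end. The libraries with both compounds chose the genes, which can raise this ratio, so no test is given.

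The counts behind the single-compound values are small, 1 to 19 reads per library and gene with TH10785, 0 to 33 with PNKP1i and 0 to 9 with DMSO. All 14 genes passed the filter on low counts, with enough reads in the group with both compounds to do so. With only the 2 groups fitted, SPNS3 alone passed it against DMSO with either compound, and 3 genes passed it between the compounds. Of the 14, 0 were called against DMSO with TH10785 and 0 with PNKP1i by edgeR's quasi-likelihood test with Benjamini-Hochberg adjustment over 17290 genes, at an adjusted p under 0.05. The background was low as well in this fit: 0.515% of all genes were called higher with TH10785 and 0.174% under PNKP1i, and 0% (0 of 131) of the near-silent genes tested with either. This main fit drew its spread from all 12 libraries, and the calls changed with the libraries fitted. With only the 2 groups fitted, 1150 genes were called in either direction with PNKP1i, SPNS3 among them, against 34 in the main fit. For TH10785 the counts were 90 and 97. In the main fit an unadjusted p under 0.05 was reached by 6 of the 14 genes with TH10785 and 4 with PNKP1i, against 2445 and 1957 of all genes. With both compounds 14 of 14 were called higher, against 21.3% of all genes, in the contrast that chose them.

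CPED1 had the smallest p of the set with TH10785, at a log2 fold change of 2.20 (SE 0.56; edgeR adjusted p = 0.0960), higher in 3 of 3 libraries. SPNS3 had the smallest p with PNKP1i, at 2.26 (SE 0.50; edgeR adjusted p = 0.0925), higher in 3 of 3 libraries. The largest fold change with either compound was that of DCDC2C, 3.19 with TH10785 (SE 0.94; edgeR adjusted p = 0.151) and 2.54 with PNKP1i (SE 1.01; edgeR adjusted p = 0.387). Other tests passed some of these values. DESeq2, which gave an adjusted p to 11 of the 14 with TH10785, called 2 of them, DCDC2C (log2 3.35, adjusted p = 0.0479) and CPED1 (2.24, adjusted p = 0.0492), among 338 genes called in all. With PNKP1i DESeq2 gave an adjusted p to only 2 of the 14, ESM1 and SPRR2D, and called neither (121 genes in all). Without the filter on low counts edgeR called 3 with TH10785, DCDC2C, LINC00520 and CPED1, and 2 with PNKP1i, EREG and SPNS3, while its calls over all genes rose from 97 to 513 and from 34 to 189. The median log2 fold change of the 14 genes was 1.19 with TH10785 and 1.14 with PNKP1i, against 0.89 and 0.80 for the 131 near-silent genes tested and -0.02 for all genes in both. The 2 comparisons share the DMSO libraries.

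The comparison of TH10785 with PNKP1i set 2 groups against each other that did not choose the genes, although the filter and the estimate of spread came from all 12 libraries. Of the 14 genes, 0 were called by edgeR and 0 by DESeq2, against 0.902% of all genes in either direction by edgeR, and 1 had an unadjusted p under 0.05 (1497 of all genes). That gene was EREG, lower with TH10785 by a log2 fold change of -1.57 (SE 0.73, 95% interval -3.11 to -0.03; edgeR adjusted p = 0.562). LINC00520 pointed the other way, 1.16 (SE 0.59, 95% interval -0.09 to 2.40; edgeR adjusted p = 0.623), as did MYCT1, 1.63 (95% interval -0.23 to 3.48; edgeR adjusted p = 0.668). The intervals are too wide to show that the compounds act alike on these genes. The narrowest, for SPNS3, ran from -1.496 to 0.26, and the widest, for SPRR2D, from -2.65 to 1.95. The median over the 14 genes was 0.11, against 0.00 over all genes.

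**Figure D3:**
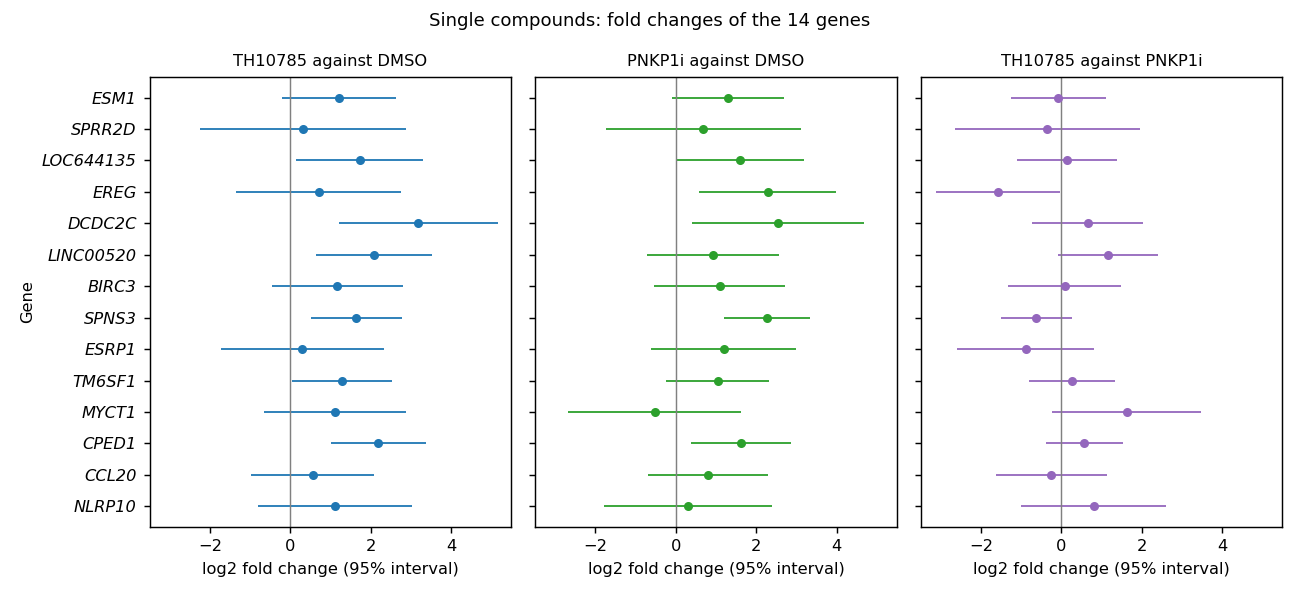
Log2 fold changes from edgeR with 95% intervals for the 14 genes with TH10785 against DMSO, PNKP1i against DMSO and TH10785 against PNKP1i (3 libraries a group). In the first 2 panels all points but that of MYCT1 with PNKP1i (-0.52) lie to the right of 0, and in the third the points scatter to both sides, from -1.57 (EREG) to 1.63 (MYCT1).

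The 3 libraries with both compounds did not rise alike. Replicate 1 was the highest of the 3 in 13 of the 14 genes, all but CPED1, and replicate 2 the lowest in 11. The ratio of replicate 1 to the mean of the other 2 had a median of 2.17 over the set. Over the 12902 genes at 20 or more in every library it was 1.003, with replicate 1 highest in 37.3%. Over the 246 genes that were not near-silent in DMSO but exceeded every DMSO library more than 2 times in all 3 libraries with both compounds, it was 1.36, with replicate 1 highest in 77.6%. Without replicate 1 the rule took the same 14 genes, and without replicate 2 it took 23, among them all 14. The cause of the difference between the libraries was not tested.

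**Figure D4:**
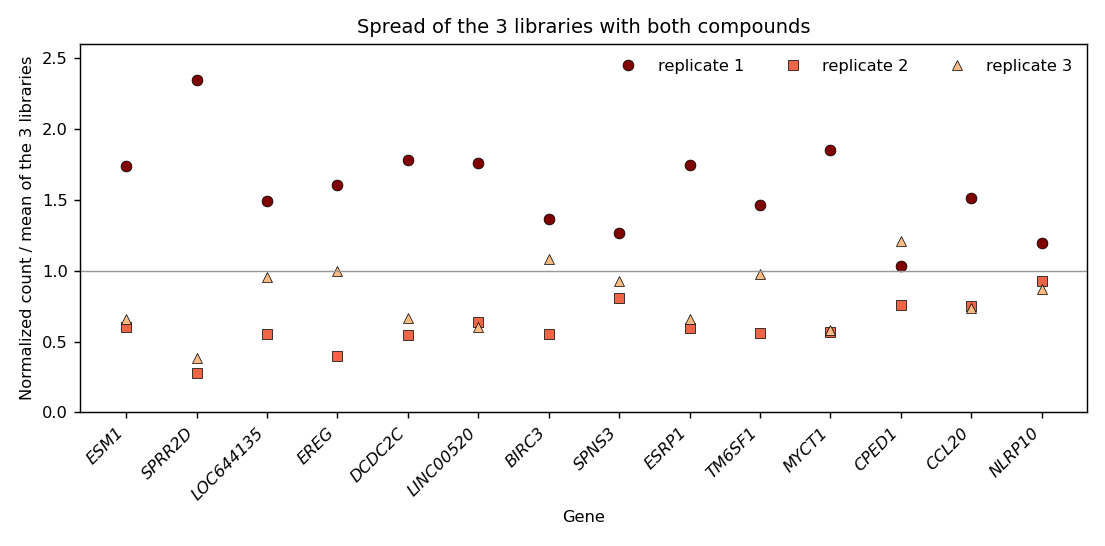
Normalized count of each library with both compounds divided by the mean of the 3, for the 14 genes. Replicate 1 lies above the other 2 in every gene but CPED1, with the widest gap in SPRR2D.

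By annotated type, 12 of the 14 genes were protein coding (85.7%, against 42.7% of the 7878 near-silent genes), 1 was a lincRNA (7.14% against 10.7%) and 1 an antisense RNA (7.14% against 7.79%). No pseudogene or small RNA was among them. By families of symbols, secreted cytokines, growth factors and hormones held 2 of the 14, EREG and CCL20 (14.3% against 1.04%), although chemokines of the CXCL family, interleukins and matrix proteases had been left out by the rule. MYCT1 fell under transcription factors by its symbol alone, 10 genes matched no family, and receptors, ion channels, histones and zinc finger genes held 0. The genes lay on 11 chromosomes. Their exonic GC content had a median of 41.8% (34.8% for BIRC3 to 62.5% for SPNS3), against 48.2% for near-silent genes and 49.7% for the protein-coding ones. Exon length had a median of 2862.5 bases, against 1480.5 for near-silent genes and 2947.5 for the protein-coding ones.

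With a DMSO mean of 100 or more taken as expressed, most of the set did not sit beside expressed genes. Of the 14 genes, 1 overlapped an expressed gene (26.8% of near-silent genes) and 5 lay within 20000 bases of one (51.04%). The share of near-silent genes beside an expressed gene is not given for a lower cut-off. TM6SF1 overlaps HDGFL3 on the opposite strand, which had a mean of 748 with DMSO and 1036 with both compounds, so part of its reads cannot be told apart without strand. BIRC3 lies ahead of its paralog BIRC2, which had 140.1, 154.5 and 158.2 with DMSO and 502.5, 308.2 and 457.1 with both. BIRC2 rose 2.80 times while BIRC3 stood at 14.2 times. For the other neighbours the ratio was 0.761 (EIF3F by NLRP10) to 1.94 (ING3 by CPED1). The neighbours compared include SPNS2 by SPNS3 (DMSO mean 68.6) and ING3 by CPED1 (53.3), which lie under the cut-off of 100. The ratio of the member was higher in each of the 7 pairs. The rule chose members for a low DMSO level and a high level with both compounds, so this order was largely set in advance.

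**Figure D5:**
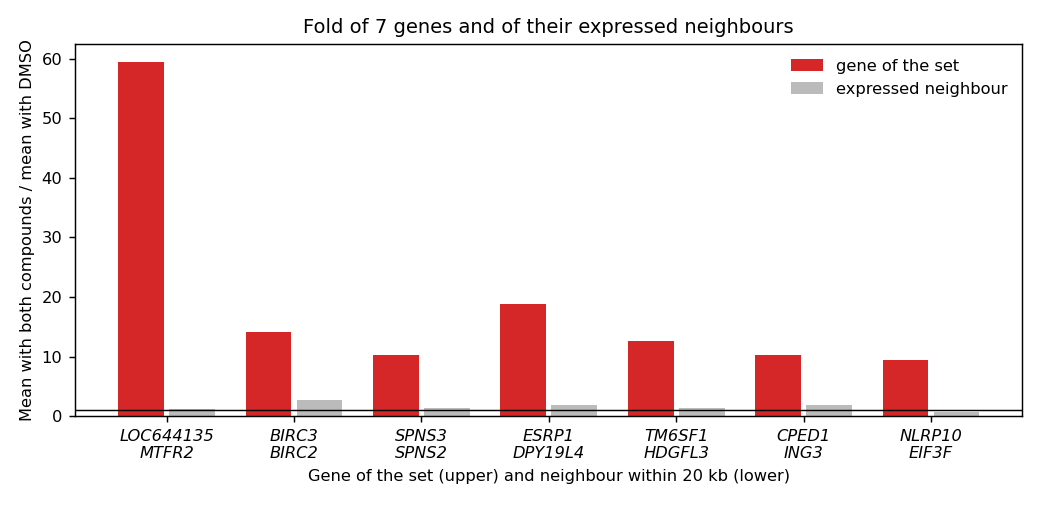
Ratio of the mean with both compounds to the mean with DMSO for 7 genes of the set (red) and for a neighbour within 20 kb that had a DMSO mean of 20 or more (grey); the line marks 1. The neighbours run from 0.761 to 2.80 and the genes of the set, chosen for a low DMSO level, from 9.42 to 59.5.

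Of 11 pathway lists, 4 held a gene of the set, and these held only EREG, CCL20 and BIRC3. The rule chose these genes for a rise with both compounds, so their part in the counts was set in advance. With both compounds 21.3% of all genes tested rose and 19.7% fell, which is the background for the counts that follow. Lists with no gene of the set moved too: 36 of 40 tested ATF4 stress response genes rose and 0 fell (median log2 fold change 0.95). The others were heat shock (9 up and 5 down of 18), metallothioneins (4 and 0 of 5), NRF2 (11 and 7 of 27), p53 (9 and 6 of 25), hypoxia (7 and 6 of 19) and interferon (5 and 5 of 21). With PNKP1i alone, 10 of the 40 ATF4 genes (median log2 fold change 0.65 over the list) and 4 of the 27 NRF2 genes were called higher by edgeR. With TH10785 alone 0 were called in either list. The heat shock, metallothionein, p53, hypoxia and interferon lists had 0 called with either compound alone. Among 29 tested NF-kB targets, 13 rose and 3 fell, with a median log2 fold change of 0.49 against 0.04 over all genes, and 0 were called by edgeR with TH10785 or with PNKP1i (4 and 6 at an unadjusted p under 0.05). BIRC3 and CCL20 are 2 of the 13; others were PTX3 (log2 3.05), TRAF1 (1.81), RELB (1.55) and TNFAIP3, a feedback inhibitor (1.48), while the chemokine CCL2 fell (-2.13). Of 38 tested immediate early genes, 19 rose and 7 fell with both, with a median of 0.52. With TH10785 alone 1 of them was called, AREG, the amphiregulin gene that lies in the same ligand family as EREG. AREG read 48.6, 56.8 and 57.3 with DMSO, 110.5, 116.2 and 140.4 with TH10785, 78.5, 77.8 and 62.2 under PNKP1i, and 343.6, 180.5 and 208.3 with both. Its log2 fold change with TH10785 was 1.16 (SE 0.24; edgeR adjusted p = 0.0377), where that of EREG was 0.71 (SE 0.97; edgeR adjusted p = 0.783); the difference between the 2 genes was not tested. Of 21 tested genes of senescence-associated secretion, 8 rose and 6 fell with both, AREG alone was called with TH10785 and 0 by edgeR with PNKP1i (5 at an unadjusted p under 0.05). Of 8 tested targets of the aryl hydrocarbon receptor, a list that holds EREG, 3 rose and 1 fell with both, and NQO1 was called with PNKP1i alone (log2 0.91). The lists were drawn up with earlier results of these data known, so their counts are a description.

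For the 3 genes highest with both compounds, the most similar patterns over the 12 libraries were found by Pearson's r of log2(normalized count + 1), on libraries that share groups. For ESM1 they were MLPH (r = 0.990), OLAH (0.981) and OSCAR (0.977), for SPRR2D BTG1 (0.971), IKBKB (0.968) and NBPF9 (0.961), and for LOC644135 TM6SF1 of the same set (0.984), TRIML2 (0.979) and BCL2A1 (0.970). OLAH and OSCAR were not in the set by their DMSO means of 9.20 and 24.1, and reached 647 and 850 with both compounds. BCL2A1 was left out by name, with 0 in DMSO and a mean of 24.5 with both.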

How the data were processed

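Per the labels' protocols, TRIzol RNA was turned into NEBNext Ultra libraries and read as pairs on a NovaSeq. Per the submitters' processing notes, the tools include DESeq2 1.30.1, HTSeq 0.6.1 and HISAT2 2.0.5, with hg38 and GRCh38 as builds; the annotation counted and the strand setting are not given in the sources used here. The authors deposited raw read counts for 58735 genes, 16225339 to 21546369 per library. Their other deposited table is a normalized signal, the count divided by 1 size factor per library. Gene identifiers matched GENCODE release v29, which gave types, lengths and GC content. No 2 libraries were identical, and replicates differed by more than sampling noise.

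Tests on the raw counts used edgeR 4.0.16 under R 4.3.3 (filterByExpr, minimum count 10, minimum total 15; TMM; robust quasi-likelihood F tests, two-sided, on 12 libraries with a mean per group), which left 17290 genes. P-values were adjusted by Benjamini-Hochberg over all genes tested, per comparison. The fit was tested on simulated data. The genes named are the 12 members highest with both compounds, members called with a compound alone or between the compounds, members of shared families or noncoding types, and those nearest the thresholds, which together are all 14; genes of the same families, neighbours and examples from lists were chosen after their values were seen. Some genes are not reported here. The members and lists were chosen with earlier results of these data known. The settings tried beside it were DESeq2 1.42.0, limma-voom (limma 3.58.1), RLE or upper-quartile scaling, no filter, only the 2 groups compared, the replicate number as a block, offsets from splines of GC content and length (5 degrees of freedom), each library left out, and other thresholds of the rule.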

Additional observations from a re-analysis of the deposited data

How the results depend on the processing

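The main fit called 0 of the 14 genes in the 3 tests, so no called direction could reverse in the 21 other settings. Without a call, the sign differed from the main fit in 4 of 281 values with TH10785 and 5 of 281 with PNKP1i. Between the compounds it differed in 15 of 283, and 0 of the genes fitted were called between them in each setting. All 14 were fitted in 20 of these settings; with only the 2 groups fitted, 3 passed the filter between the compounds, and SPNS3 alone against DMSO with either. Against DMSO with TH10785 the count of 0 (97 of all genes called) became 3 without the filter on low counts (513), 1 with GC and length offsets (285), 1 with these offsets and the replicate block (187), and 2 with DESeq2 (338); leaving out 1 library gave 0 to 1, CPED1 without TH10785 replicate 3 (adjusted p = 0.0391; 137). With PNKP1i it (34 of all genes called) became 2 without the filter (189), 1 with GC and length offsets (91) and 1 of 1 with only the 2 groups fitted (1150); leaving out 1 library gave 0 to 1, SPNS3 without DMSO replicate 2 (13) or TH10785 replicate 3 (301). The replicate block alone called 0, 0 and 0. Deviations of same-numbered libraries correlated by -0.137 to 0.125 in the comparisons fitted. These values show no strong effect shared by number, and they cannot show whether same-numbered libraries were handled together. The rule took 1 gene with a DMSO mean under 2, 38 under 10, 2 with every library at 50 or more and 38 at 10 or more; leaving out 1 library gave 13 to 23, with 11 or 12 of the 14 kept without 1 DMSO library and 14 without 1 library with both compounds. Applied to TH10785 alone it took 5 genes with a DMSO mean under 10 and 10 at 10 or more, and 0 to 1 without 1 library; to PNKP1i alone 3 at 10 or more, and 0 to 1 without 1 library. The ratios and levels per kb without replicate 1 of both compounds were chosen after seeing the data. The cause of these changes was not tested. Single-compound values rest on 0 to 33 reads per library and gene.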

Other observations

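The mirrored rule, genes at 20 or more in every DMSO library with a mean under 5 with both compounds, took 8 genes, among them MYOCD, which was chosen after its values were seen. MYOCD, the coactivator of smooth and cardiac muscle genes, read 46.3, 68.2 and 63.3 normalized counts with DMSO, 27.1, 16.3 and 13.6 with TH10785, 13.6, 32.9 and 7.32 under PNKP1i, and 1.78, 3.52 and 1.65 with both. Each single-compound library of MYOCD lay between the DMSO libraries and those with both compounds. These genes were chosen by their values, so no test is given.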
